A study of Rattus norvegicus with 18 samples.

Results

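The mitochondrial protein import machinery was described at the level of messenger RNA in cultured heart muscle cells of newborn rats. Its members were the rows of the deposited table whose gene symbol began with Timm or Tomm, together with Pmpca, Pmpcb, Samm50, Grpel1, Hspa9, Dnajc19, Mtx1 and Mtx2. The rule found 29 members among 17303 rows and used no measured value. Ventricular myocytes of Wistar rats at postnatal day 3 were cultured, treated with AraC (a drug against dividing cells) for 48 h, kept without serum for 24 h and then treated for 48 h. The 6 groups of 3 libraries were Vehicle, phenylephrine (PE, 10 µM), PE with Senexin A at 10 µM, PE with Senexin A at 50 µM, Senexin A alone at 10 µM and Senexin A alone at 50 µM. PE stimulates alpha1-adrenergic receptors and makes such cells grow in size, and Senexin A inhibits the kinase CDK8 of the Mediator complex. All groups shared the AraC and the serum-free period, and the vehicle's content was not given in the labels. The study asked how CDK8 kinase activity bears on the transcriptional response to a hypertrophic stimulus.

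Nearly all mitochondrial proteins are encoded in the nucleus, made in the cytosol and imported. Precursors cross the outer membrane through the TOM complex; beta-barrel proteins are then inserted by the SAM complex, carrier proteins are handed by small TIM chaperones to the TIM22 complex, and proteins with a cleavable presequence pass the TIM23 complex. The PAM motor, built on the matrix chaperone mortalin, pulls the latter into the matrix, where the peptidase MPP removes the presequence. Heart muscle cells are densely packed with mitochondria, so this path carries a large traffic of enzymes of energy metabolism in them.

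Libraries were measured in FPKM (fragments scaled by transcript length and by library size), and the FPKM sums ran from 610324 to 910958 with the lowest in Vehicle. All 7 cardiomyocyte markers were detected in every library. Their summed levels moved with the groups, from 31800 to 45700 FPKM with Vehicle, 43200 to 56800 at 10 µM alone and 30800 to 48900 at 50 µM alone. With PE the sums were 76800 to 94200 FPKM, all above Vehicle, with 57800 to 76500 when 10 µM was added and 39900 to 51100 when 50 µM was added. Myl2 held most of these sums (mean 30000 FPKM with Vehicle and 69500 with PE), and the 7 markers did not move alike. In limma, at an adjusted p under 0.05, 4 of them rose and 1 fell with PE (17.9% and 12.7% of all tested rows). At 50 µM alone 2 rose and 1 fell (30.5% and 30.2%).

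Other cell types were looked for by their markers. Of the 8 fibroblast markers, Col1a2 stood at the floor of 0.01 FPKM in 15 of 18 libraries, and the others were detected in every library. Fibroblast marker sums were 1120 to 1800 FPKM with Vehicle, 1110 to 2040 at 10 µM alone and 660 to 846 at 50 µM alone. With PE they were 782 to 1210 FPKM without the inhibitor, 598 to 1170 with 10 µM and 445 to 821 with 50 µM. The sums at 10 µM alone thus covered the Vehicle range, and those at 50 µM alone lay below it. Col1a1 was the largest part of these sums (mean 955 FPKM with Vehicle and 427 at 50 µM alone). Of the 7 fibroblast markers tested, 2 fell and none rose at 50 µM alone in limma (30.2% and 30.5% of all rows). The sums of 4 smooth muscle markers were 4500 to 6090 FPKM with Vehicle, 3820 to 4990 at 10 µM alone and 1770 to 2780 at 50 µM alone. With PE they were 3790 to 5690 FPKM without the inhibitor, 3160 to 4210 with 10 µM and 1800 to 1950 with 50 µM, so all 6 libraries with 50 µM were below the other 12. The 4 endothelial markers summed to little in all groups, to 3.85 to 5.38 FPKM with Vehicle, 2.85 to 4.14 at 10 µM alone and 0.795 to 2.76 at 50 µM alone. With PE these sums were 4.2 to 5.56 FPKM without the inhibitor, 2.73 to 3.29 with 10 µM and 1.15 to 2.02 with 50 µM. Both endothelial markers abundant enough to be tested fell at 50 µM with PE in limma, where 27.4% of all rows were called lower. The 5 macrophage markers summed to between 3.27 and 38.2 FPKM, in ranges that overlapped between PE and Vehicle and between each inhibitor group and its own background. With the replicate number as a block in limma, 4 of 4 tested macrophage markers rose at 10 µM with PE and 3 at 10 µM alone (1545 and 1511 of all 10478 tested rows). In that fit 4 of 7 tested fibroblast markers fell with PE and none rose (2010 and 2411 of all rows). Without the block none of these was called. In such bulk RNA, fewer cells of a type and less RNA per cell cannot be told apart. The part of these marker changes in those of the import genes was not tested.

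More import genes rose than fell with PE and with Senexin A, and the count was highest at 50 µM alone. With PE against Vehicle, 16 of the 28 tested members rose and 1, Timm10b, fell at an adjusted p under 0.05 in limma, while 17.9% of all 10478 tested rows were called higher and 12.7% lower. At 50 µM against Vehicle 25 members rose and none fell (30.5% of all rows were higher and 30.2% lower). At 50 µM with PE against PE alone 18 rose and 2 fell (29.3% and 27.4% of all rows). At 10 µM 15 members rose without PE (9.17% of all rows) and 11 with PE (9.13% of all rows), and no member was lower (7.01% and 7.84% of all rows). The members' median log2 changes were 0.35 with PE, 0.32 and 0.64 at 10 and 50 µM without PE, and 0.24 and 0.43 at 10 and 50 µM with PE. In these comparisons the medians of all tested rows lay between -0.01 and 0.01. Groups of 3 libraries that did not overlap are a plainer measure. PE libraries were all above Vehicle for 19 of 28 members and all below for 1 (25.7% and 22.0% of all rows). Without PE the inhibitor libraries were all above Vehicle for 18 members at 10 µM (18.2% of all rows higher, 17.2% lower) and for 26 at 50 µM (32.6% and 32.2%), and for no member all below. Added to PE, the inhibitor gave 19 members above and none below at 10 µM (19.3% and 16.8%), and 18 above and 2 below at 50 µM (31.8% and 30.3%). The one member not tested was Timm8a2, listed at 0.45 FPKM or less in every library.

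**Figure D1:**
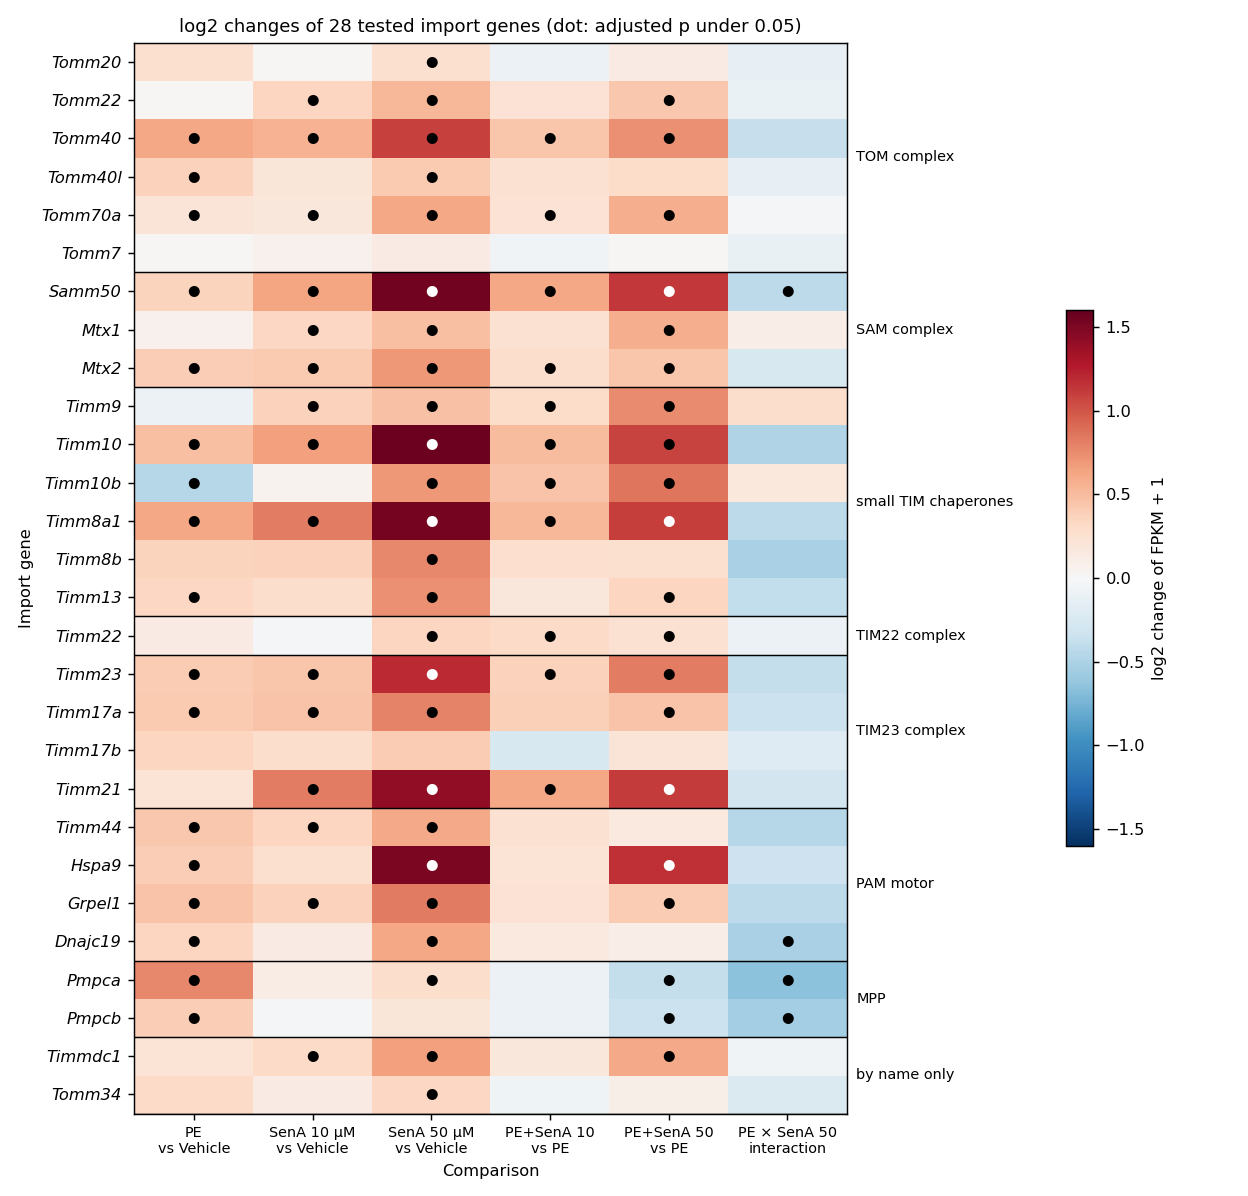
Log2 changes of FPKM + 1 for the 28 tested import genes (rows, ordered by complex) in 5 comparisons and in the difference between the 50 µM responses with and without PE (columns). Dots mark an adjusted p under 0.05 in limma; the column of 50 µM against Vehicle holds 25 dots, all on higher values, and the last column 4, all on lower values.

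The labels do not say whether the 3 libraries of a group came from separate cultures or animals; the p-values therefore rest on the spread among these libraries, which may be technical. The counts above come from a fit without a term for the replicate number, although libraries with the same number deviated together. With that number as a block, 20 members were called higher with PE, 18 and 26 at 10 and 50 µM alone, and 16 and 20 at these doses with PE. Of all 10478 tested rows, 2411, 1511, 3516, 1545 and 3412 were called higher in the same order. The counts without the block were not equally firm. At 10 µM alone the 15 fell to 9, 7 and 6 without Vehicle replicate 2, Vehicle replicate 3 and the 10 µM replicate 2. At 10 µM with PE the 11 fell to 7, 5 and 6 without PE replicate 2, PE replicate 3 and replicate 2 of PE with 10 µM. At 50 µM the counts ran from 23 to 25 without PE and from 14 to 19 with PE whichever library was left out. Calls held in every alternative for 9 of 17 members with PE, 6 of 15 at 10 µM alone, 4 of 11 at 10 µM with PE, 22 of 25 at 50 µM alone and 16 of 20 at 50 µM with PE.

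The members' summed FPKM was 2391 to 2695 with Vehicle, 2955 to 3366 with PE, 4160 to 5036 with PE and 50 µM, and 4147 to 4824 with 50 µM alone. As a share of each library's FPKM sum, members took 0.392% to 0.423% with Vehicle, 0.365% to 0.394% with PE, 0.527% to 0.561% with PE and 50 µM and 0.549% to 0.584% with 50 µM alone. The summed FPKM thus stood higher with PE than with Vehicle in every library, while the share was lower or at the lower edge of the Vehicle range. With 50 µM the share stood above all libraries of the other groups. Quantile normalization, which makes the distribution of values equal in all libraries, lowered the members' median log2 change with PE from 0.35 to 0.18 and at 50 µM alone from 0.64 to 0.53. It also moved the share of higher rows among all rows called with PE from 58.5% to 47.7%.

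Promoter windows from RefSeq (build GRCr8, 250 bases before to 50 after the start) matched 28 of the 29 members, all but Tomm34, and were searched on both strands for 5 motifs. Stretches around a motif are shown for some of the members that rose at 50 µM alone. Their changes there ran from 0.34 (Timm22) to 1.56 (Timm10) on the log2 scale. Whether a motif had a part in these changes was not tested. The composite site of ATF4 with C/EBP factors (TGATGNAAN, in capitals below) was present in 3 windows, those of Hspa9, Timm22 and Tomm40l, which is 10.7% of members against 1.75% of the windows of tested rows and 3.8% of all windows. In Tomm40l it reads on the opposite strand. The stretches lie at chr18:26828514-26828602, minus strand, for Hspa9, at chr10:61751515-61751603, plus strand, for Timm22, and at chr13:86174180-86174268, minus strand, for Tomm40l, and each is written 5′ to 3′ on the strand of its gene.
Hspa9: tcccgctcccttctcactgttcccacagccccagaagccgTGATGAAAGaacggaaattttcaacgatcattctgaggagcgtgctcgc
Timm22: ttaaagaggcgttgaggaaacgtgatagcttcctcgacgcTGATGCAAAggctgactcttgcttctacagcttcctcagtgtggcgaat
Tomm40l: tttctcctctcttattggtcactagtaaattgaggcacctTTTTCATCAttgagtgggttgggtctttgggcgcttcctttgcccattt
The motif begins 164, 131 and 107 bases before the start in the order shown. A match is a description of letters, and no binding was measured.

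An E-box (CACGTG, the core bound by MYC and USF proteins) lay in the windows of Hspa9, Timm10, Timm8a1 and Timm9, 14.3% of members against 9.6% of the windows of tested rows. In Timm10 and Timm8a1, both small TIM chaperones, it begins 13 and 58 bases before the start. In Hspa9 and Timm9 it begins after the start, at bases 3 and 12, and these stretches are not shown. Timm10 and Timm8a1 are shown with the motif in capitals, at chr3:90315086-90315138, plus strand, and at chrX:102015457-102015542, minus strand.
Timm10: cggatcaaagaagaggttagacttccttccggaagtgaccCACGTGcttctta
Timm8a1: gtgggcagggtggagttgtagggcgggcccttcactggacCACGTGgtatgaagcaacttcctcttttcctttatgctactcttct
The core site of estrogen-related receptors (AAGGTCA), factors of mitochondrial gene control, lay in 3 windows (Timm23, Timm44 and Timm8b; 10.7% against 2.6% of tested windows). The site of NRF1, a factor of nuclear genes for mitochondria (GCGCA, then any base, then GCGC), lay in 4 (Grpel1, Timm21, Tomm20 and Tomm7; 14.3% against 10.56%). Timm23, the channel of the inner membrane, and Grpel1, the exchange factor of the motor, are shown at chr16:7442620-7442685, minus strand, and at chr14:78522869-78522940, minus strand.
Timm23: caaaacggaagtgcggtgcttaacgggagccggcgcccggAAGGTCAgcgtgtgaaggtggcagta
Grpel1: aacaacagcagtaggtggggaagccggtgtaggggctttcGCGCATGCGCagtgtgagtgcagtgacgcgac
The CRE (TGACGTCA) was in none of the 28 windows and in 3.33% of tested windows. Members with a given motif did not respond alike: of the 4 with an NRF1 site, Timm21 rose by 1.41 on the log2 scale at 50 µM alone, while Tomm7 was not called (0.14). Of the 3 with the composite ATF4 site, Hspa9 rose by 1.50 there. The rises of Timm22 (0.34) and Tomm40l were below the members' median of 0.64.

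The TOM complex had 6 members, of which Tomm40 (chr1:81883631-81895516 in the table's rn5 coordinates) encodes the channel through which nearly all precursors pass. Tomm40 stood at 47.7, 41.3 and 35.3 FPKM with Vehicle, at 64.3, 64.7 and 53.8 with 10 µM and at 80.8, 90.3 and 96.6 with 50 µM Senexin A alone. With PE it stood at 68.3, 63.2 and 60.0 FPKM without the inhibitor, at 89.8, 82.6 and 89.2 with 10 µM and at 104, 115 and 101 with 50 µM. Its Vehicle libraries were the lowest of all, no PE library overlapped with them, and within each background the 10 µM libraries lay between untreated and 50 µM libraries. Tomm40 rose with PE (log2 change 0.62 ± 0.10 SE, adjusted p = 0.00036), at 10 µM alone (0.55 ± 0.10 SE, adjusted p = 0.0022) and at 50 µM alone (1.09 ± 0.10 SE, adjusted p = 2.6e-07) in limma. With PE present it rose at 10 µM (0.45 ± 0.10 SE, adjusted p = 0.008) and at 50 µM (0.73 ± 0.10 SE, adjusted p = 2.1e-05). Each of these 5 calls held in every alternative.

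Tomm70a encodes the receptor that docks chaperone-bound carrier precursors. Tomm70a stood at 50.9, 51.6 and 49.9 FPKM with Vehicle, at 57.6, 57.4 and 58.1 with 10 µM and at 74.4, 77.1 and 83.2 with 50 µM Senexin A alone. In the presence of PE its values were 63.0, 56.5 and 56.8 FPKM without the inhibitor, 70.9, 68.3 and 67.1 with 10 µM and 89.7, 88.2 and 86.6 with 50 µM. All 6 libraries with 50 µM stood above the other 12. Tomm70a rose at 50 µM with PE (0.58 ± 0.06 SE, adjusted p = 5e-07 in limma) and without it (0.61 ± 0.06 SE, adjusted p = 2.3e-07), and the difference between these changes was -0.03 (adjusted p = 0.86 in limma, 95% interval -0.20 to 0.14). With PE against Vehicle the change was 0.20 ± 0.06 SE, adjusted p = 0.013, a call that was lost without Vehicle replicate 3 (0.052), without PE replicate 1 (0.0773) and under quantile normalization (0.353).

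Tomm20 and Tomm22 encode the receptors for presequences. Tomm22 stood at 132, 125 and 126 FPKM with Vehicle and 183, 206 and 169 at 50 µM alone, and at 134, 139 and 117 with PE and 164, 201 and 162 with PE and 50 µM. It rose at 50 µM alone (0.54 ± 0.10 SE, adjusted p = 0.00022 in limma) and with PE (0.43 ± 0.10 SE, adjusted p = 0.0017). The groups of Tomm22 did not overlap in either pair, while PE and Vehicle did (log2 change 0.02 ± 0.10 SE, adjusted p = 0.89). Tomm20 stood at 282, 282 and 245 FPKM with Vehicle, 311, 356 and 303 at 50 µM alone and 343, 330.4 and 291 with PE, and the latter groups were each above Vehicle without overlap. It passed the test at 50 µM alone (0.26 ± 0.10 SE, adjusted p = 0.042), which did not hold under median-ratio scaling (0.0691), with no filter (0.0583), without Vehicle replicate 3 (0.168) and without replicate 1 (0.0521) or 2 (0.17) of 50 µM alone. Its PE change of 0.25 was called with the replicate block (adjusted p = 0.00513) and not without it (0.079). Tomm20 also changed sign under quantile normalization, to -0.05 with PE and to -0.06 at 50 µM alone.

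Tomm7, a small subunit that tunes the assembly of the complex, was called in none of the 5 comparisons with an untreated partner. Tomm7 stood at 405, 406 and 369 FPKM with Vehicle, at 386, 447 and 408 with 10 µM and at 409, 473 and 417 with 50 µM Senexin A alone. Its levels with PE were 381, 412 and 401 FPKM without the inhibitor, 321, 429.7 and 405 with 10 µM and 358, 441 and 412 with 50 µM. Groups overlapped in each of these comparisons except that of 50 µM alone with Vehicle. Its 95% intervals were -0.20 to 0.24 for PE and -0.09 to 0.36 for 50 µM alone on the log2 scale. Under quantile normalization its PE change turned to -0.31 (adjusted p = 0.0124 in limma). Tomm40l, a relative of the channel, rose with PE (0.37 ± 0.12 SE, adjusted p = 0.031) and at 50 µM alone (0.42 ± 0.12 SE, adjusted p = 0.0072). The former call was lost without Vehicle replicate 1 (0.147), Vehicle replicate 2 (0.0526) or PE replicate 1 (0.121). Tomm40l at 50 µM with PE was called with the replicate block (0.0446) and not without it (0.054).

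**Figure D2:**
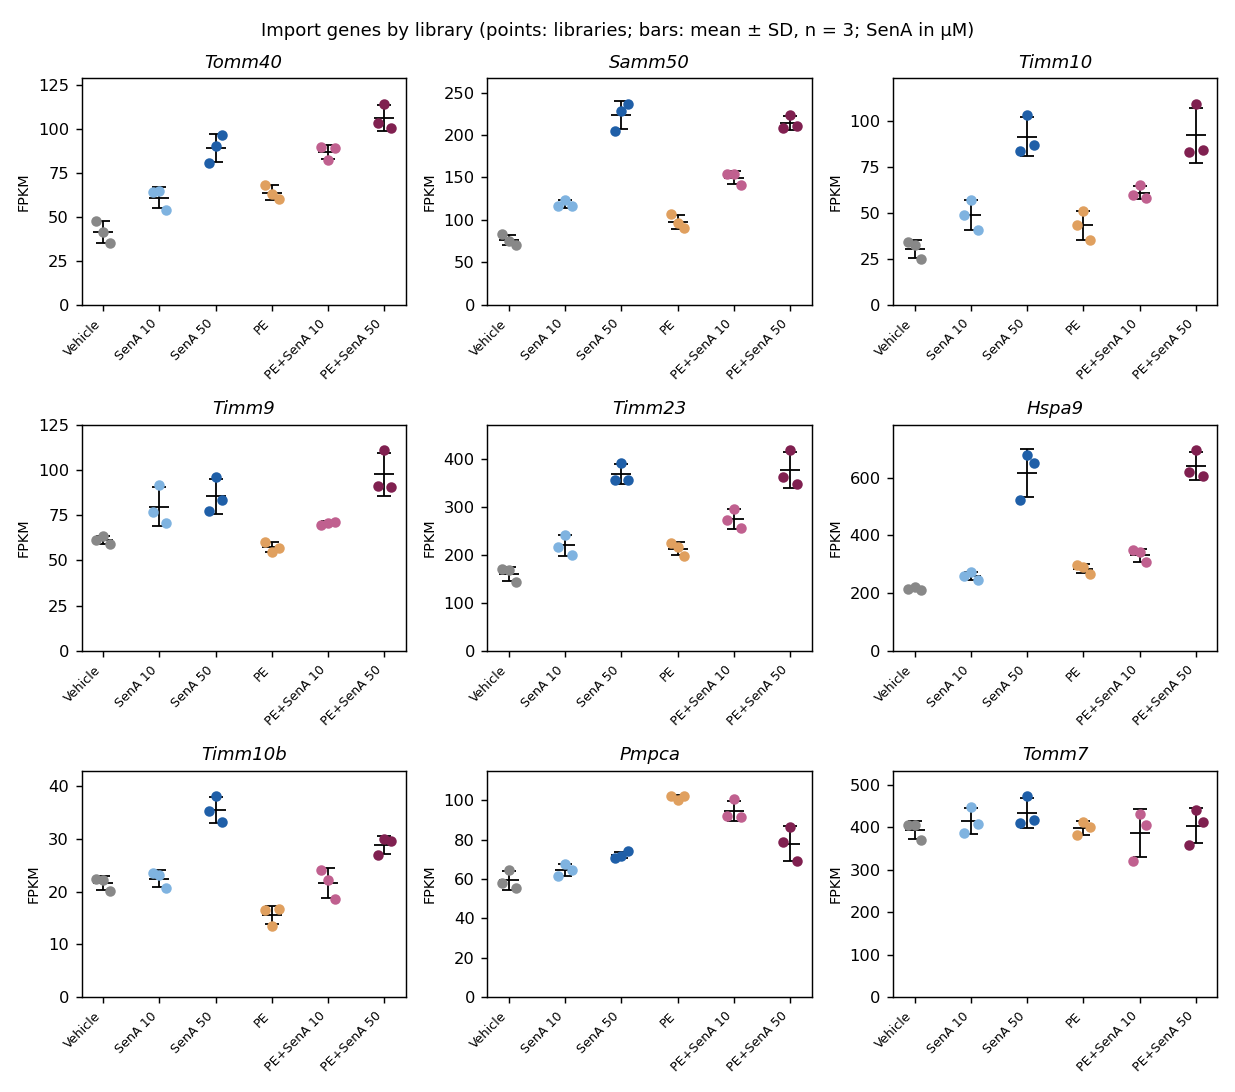
FPKM of 9 import genes in each library (points, replicates 1 to 3 from left to right) with the mean ± SD of 3 libraries, by group; Senexin A doses are in µM. Samm50, Timm10, Timm23, Hspa9 and Timm10b stand highest in the 6 libraries with 50 µM, Pmpca is highest with PE alone, and the groups of Tomm7 lie close together.

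The SAM complex inserts beta-barrel proteins into the outer membrane, and all 3 of its members rose at 50 µM in both backgrounds. Samm50 (chr7:125047477-125071018) encodes the barrel that forms its core. Samm50 stood at 82.7, 75.6 and 70.2 FPKM with Vehicle, at 116, 124 and 116 with 10 µM and at 205, 228 and 237 with 50 µM Senexin A alone. PE alone gave 107, 96.0 and 90.4 FPKM, PE with 10 µM gave 154, 155 and 141 and PE with 50 µM gave 208, 223 and 211. The 6 groups fell into ranges that overlapped neither between Vehicle and PE nor between any dose and its own background. Samm50 rose with PE (0.35 ± 0.08 SE, adjusted p = 0.0028 in limma), at 10 µM alone (0.64 ± 0.08 SE, adjusted p = 8.1e-05) and at 50 µM alone (1.54 ± 0.08 SE, adjusted p = 8.9e-10). On top of PE it rose at 10 µM (0.61 ± 0.08 SE, adjusted p = 0.00013) and at 50 µM (1.13 ± 0.08 SE, adjusted p = 1.5e-08). All 5 calls held in every alternative, and Samm50 was the member with the lowest adjusted p in the comparisons of either dose with its own background.

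Mtx1 and Mtx2 encode metaxins, the cytosolic-side partners of the barrel. Mtx2 stood at 97.3, 99.0 and 97.5 FPKM with Vehicle and at 146, 171 and 159 with 50 µM alone (0.69 ± 0.07 SE, adjusted p = 8.9e-07 in limma), and at 136, 131 and 120.5 with PE and 173, 187 and 165 with PE and 50 µM (0.44 ± 0.07 SE, adjusted p = 0.0001). Every Mtx2 library with 50 µM was higher than every library of its background, and the PE libraries were all above Vehicle (0.39 ± 0.07 SE, adjusted p = 0.00094). Mtx1 was not called with PE (0.07 ± 0.10 SE, adjusted p = 0.59), and rose at 50 µM from 13.4, 12.6 and 12.6 to 16.7, 19.0 and 19.6 FPKM without PE (0.48 ± 0.10 SE, adjusted p = 0.00039) and from 14.0, 12.9 and 13.8 to 18.5, 23.1 and 21.3 with it (0.58 ± 0.10 SE, adjusted p = 8e-05).

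The small TIM chaperones carry hydrophobic precursors across the space between the membranes; 6 of 7 members were tested. At 50 µM all 6 rose without PE and 5 with PE, the exception being Timm8b. With PE alone 3 rose (Timm10, Timm8a1 and Timm13) and Timm10b fell. Timm10 (chr3:78747541-78751015) and Timm9 encode the main hexamer. Timm10 stood at 33.9, 32.4 and 24.9 FPKM with Vehicle, at 48.7, 56.9 and 40.5 with 10 µM and at 83.8, 103 and 87.0 with 50 µM Senexin A alone. With PE it stood at 43.3, 50.9 and 35.1 FPKM without the inhibitor, at 59.9, 65.0 and 57.9 with 10 µM and at 82.8, 109 and 84.3 with 50 µM. All 6 libraries with 50 µM were above the other 12. Timm10 rose by 1.56 ± 0.15 SE, adjusted p = 4e-07, at 50 µM alone and by 1.08 ± 0.15 SE, adjusted p = 2.1e-05, with PE in limma. Its rise with PE alone (0.49 ± 0.15 SE, adjusted p = 0.025) was lost without Vehicle replicate 3 (0.133), PE replicate 1 (0.0689) or PE replicate 2 (0.123).

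Timm9, its partner, did not follow with PE. Timm9 stood at 61.5, 63.6 and 59.0 FPKM with Vehicle, at 76.7, 91.7 and 70.8 with 10 µM and at 77.3, 96.0 and 83.3 with 50 µM Senexin A alone. In the presence of PE its values were 60.2, 54.9 and 57.0 FPKM without the inhibitor, 69.8, 70.9 and 71.5 with 10 µM and 91.4, 111 and 90.5 with 50 µM. PE and Vehicle libraries overlapped (log2 change -0.10 ± 0.10 SE, adjusted p = 0.49 in limma), and under quantile normalization Timm9 was called lower with PE (0.028). It rose at 50 µM both with PE (0.75 ± 0.10 SE, adjusted p = 9.1e-06) and without (0.47 ± 0.10 SE, adjusted p = 0.00068), in libraries that did not overlap with their background. The ratio of Timm10 to Timm9 FPKM, a description chosen after the values were seen, was 0.42 to 0.55 with Vehicle, 0.62 to 0.93 with PE, 0.57 to 0.63 at 10 µM alone and 1.04 to 1.08 at 50 µM alone. With PE it was 0.81 to 0.92 at 10 µM and 0.91 to 0.98 at 50 µM.

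Timm10b, which joins a fraction of that hexamer to the TIM22 complex, was the only member to fall with PE. Timm10b stood at 22.5, 22.2 and 20.2 FPKM with Vehicle, at 23.6, 23.2 and 20.6 with 10 µM and at 35.3, 38.1 and 33.1 with 50 µM Senexin A alone. Its levels with PE were 16.4, 13.5 and 16.7 FPKM without the inhibitor, 24.1, 22.1 and 18.6 with 10 µM and 26.9, 30.0 and 29.5 with 50 µM. The PE libraries were below all others and the 6 libraries with 50 µM above all others. Timm10b fell by 0.46 on the log2 scale with PE (SE 0.10, adjusted p = 0.0028 in limma), rose when 10 µM was added to PE (0.45 ± 0.10 SE, adjusted p = 0.0061) and rose at 50 µM with PE (0.85 ± 0.10 SE, adjusted p = 2.8e-06) and without (0.69 ± 0.10 SE, adjusted p = 2e-05). At 10 µM alone it did not pass the test (0.05 ± 0.10 SE, adjusted p = 0.78). Each of the 4 calls held in every alternative.

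Timm8a1, Timm8b and Timm13 form the second set of small TIM hexamers, which escort a narrower range of inner membrane proteins; loss of human TIMM8A causes deafness-dystonia syndrome. Timm8a1 stood at 33.2, 30.1 and 27.5 FPKM with Vehicle, at 55.9, 61.3 and 45.8 with 10 µM and at 79.9, 106 and 83.1 with 50 µM Senexin A alone. PE alone gave 53.1, 42.8 and 45.2 FPKM, PE with 10 µM gave 62.0, 75.6 and 67.5 and PE with 50 µM gave 100.1, 116 and 91.6. The PE and 10 µM libraries were all above Vehicle, and the 50 µM libraries were above all others. Timm8a1 rose with PE (0.62 ± 0.13 SE, adjusted p = 0.0021 in limma), at 10 µM alone (0.82 ± 0.13 SE, adjusted p = 0.00064), at 50 µM alone (1.53 ± 0.13 SE, adjusted p = 9.1e-08) and at 50 µM with PE (1.11 ± 0.13 SE, adjusted p = 3e-06). Timm8a1 and Timm8a2 are close copies, so reads could have been divided between them.

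Timm13, which pairs with Timm8a1, rose at 50 µM alone from 87.2, 91.5 and 77.9 to 145, 146 and 137 FPKM (0.73 ± 0.10 SE, adjusted p = 1.2e-05 in limma). With PE the step to 50 µM was smaller, from 114, 107 and 103 to 121, 156 and 135 FPKM (0.34 ± 0.10 SE, adjusted p = 0.0088), and that call was lost without replicate 2 of PE with 50 µM (0.0555). The difference between these responses was -0.39 (adjusted p = 0.11 without and 0.0196 with the replicate block). Timm8b, a further partner, stood at 346, 354 and 287 FPKM with Vehicle and 539, 646 and 504 at 50 µM alone (0.77 ± 0.16 SE, adjusted p = 0.00058), in groups that did not overlap. With PE it stood at 467, 449 and 353 FPKM without and 451, 644 and 433 with 50 µM, in groups that overlapped (0.26 ± 0.16 SE, adjusted p = 0.19). The replicate block brought calls for Timm8b at 50 µM with PE (0.0164), with PE alone (0.0036) and at 10 µM alone (0.00488).

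Timm22, the pore that inserts carrier proteins, showed small changes. Its values were 27.7, 26.5 and 24.6 FPKM with Vehicle, 26.3, 26.9 and 23.7 at 10 µM alone and 30.2, 35.0 and 35.4 at 50 µM alone. It rose at 50 µM alone (0.34 ± 0.10 SE, adjusted p = 0.007 in limma), and Vehicle and PE overlapped (0.13 ± 0.10 SE, adjusted p = 0.35). With PE its highest mean was at 10 µM (35.9 ± 5.14 FPKM, SD, n = 3, against 28.8 ± 1.43 with PE alone). The call at 10 µM with PE (adjusted p = 0.045 in limma) was lost without PE replicate 1 (0.0585), 2 (0.143) or 3 (0.105) and without replicate 2 of PE with 10 µM (0.21). The call at 50 µM with PE (0.041) was lost without PE replicate 2 (0.127) or 3 (0.0782), without replicate 1 (0.0714) or 2 (0.17) of PE with 50 µM and with no filter (0.0532), quantile normalization (0.0788) or median-ratio scaling (0.0657).

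The TIM23 complex is the gate of the inner membrane for presequence proteins. Timm23 (chr16:8241069-8267099) encodes the channel. Timm23 stood at 170.5, 168 and 144 FPKM with Vehicle, at 218, 242 and 200.2 with 10 µM and at 357, 393 and 357 with 50 µM Senexin A alone. With PE it stood at 224, 217 and 198 FPKM without the inhibitor, at 273, 297 and 257 with 10 µM and at 362, 420.0 and 349 with 50 µM. All 6 libraries with 50 µM were above the other 12, and PE libraries were above Vehicle. Timm23 rose at 10 µM (0.45 ± 0.09 SE, adjusted p = 0.0044 in limma) and 50 µM (1.20 ± 0.09 SE, adjusted p = 4e-08) without PE and at 50 µM with PE (0.82 ± 0.09 SE, adjusted p = 2.3e-06). Its rise with PE alone (0.40 ± 0.09 SE, adjusted p = 0.0042) was lost under quantile normalization (0.0662).

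Timm17a and Timm17b encode alternative forms of the partner subunit, and only the former was well expressed. Timm17a rose at 50 µM alone, from 154, 155 and 123 to 242, 277 and 229 FPKM (0.79 ± 0.15 SE, adjusted p = 0.00028 in limma). The step from PE at 221, 196 and 166 to PE with 50 µM at 253, 314 and 232 FPKM (0.45 ± 0.15 SE, adjusted p = 0.018) was lost without PE replicate 3 (0.0918) or replicate 2 of PE with 50 µM (0.0978). Groups of Timm17a did not overlap in either pair. Its call with PE alone (0.42 ± 0.15 SE, adjusted p = 0.042) was lost in 5 of 6 fits that left out a library, the exception being PE replicate 3. Timm17b was listed between 0.01 and 2.13 FPKM, its groups overlapped in every comparison, and no call was made. The ratio of Timm17a to Timm23 was 0.80 to 0.98 in the 12 libraries without 50 µM and 0.64 to 0.75 in the 6 with it.

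Timm21, which tethers TIM23 to the TOM complex and to respiratory chain assembly, shares its locus with Fbxo15 in the table, so its value is uncertain. Timm21 stood at 41.8, 41.1 and 36.3 FPKM with Vehicle, at 74.6, 76.8 and 61.8 with 10 µM and at 97.4, 132 and 95.9 with 50 µM Senexin A alone. In the presence of PE its values were 50.9, 43.6 and 44.6 FPKM without the inhibitor, 70.3, 78.4 and 67.3 with 10 µM and 94.0, 117 and 96.4 with 50 µM. The 10 µM libraries were above their background in both settings, and the 50 µM libraries were above all others. It rose at 10 µM alone (0.82 ± 0.12 SE, adjusted p = 0.00045 in limma), at 50 µM alone (1.41 ± 0.12 SE, adjusted p = 1.2e-07), at 10 µM with PE (0.62 ± 0.12 SE, adjusted p = 0.0031) and at 50 µM with PE (1.12 ± 0.12 SE, adjusted p = 1.5e-06), and all 4 calls held in every alternative. With PE alone the change was 0.22 ± 0.12 SE, adjusted p = 0.2.

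The PAM motor had 4 members, and all of them rose with PE and at 50 µM alone. Hspa9 (chr18:27441163-27459327) encodes mortalin, the mitochondrial HSP70 that drives translocation. Hspa9 stood at 215, 221 and 212 FPKM with Vehicle, at 259, 272 and 246 with 10 µM and at 521, 678 and 652 with 50 µM Senexin A alone. Its levels with PE were 297, 291 and 266 FPKM without the inhibitor, 348, 341 and 306 with 10 µM and 619.7, 697 and 607 with 50 µM. The 50 µM libraries stood far above the other 12 libraries, of which the highest was 348 FPKM. Hspa9 rose by 1.50 ± 0.09 SE, adjusted p = 3.5e-09, at 50 µM alone and by 1.17 ± 0.09 SE, adjusted p = 5e-08, at 50 µM with PE in limma. At 10 µM it was called in neither background (0.26 ± 0.09 SE, adjusted p = 0.066 alone and 0.22 ± 0.09 SE, adjusted p = 0.11 with PE), although the groups did not overlap, and with the replicate block both were called (0.0219 and 0.046). The step from 10 to 50 µM was 1.24 ± 0.09 SE, adjusted p = 6.4e-08, without PE and 0.95 ± 0.09 SE, adjusted p = 1e-06, with PE. Its rise with PE alone (0.40 ± 0.09 SE, adjusted p = 0.0041) was lost under quantile normalization (0.253).

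Grpel1 encodes the nucleotide exchange factor of mortalin. Grpel1 stood at 98.9, 84.7 and 72.2 FPKM with Vehicle, at 114, 115 and 99.1 with 10 µM and at 139, 167 and 149 with 50 µM Senexin A alone. PE alone gave 121, 117 and 111 FPKM, PE with 10 µM gave 128, 151 and 131 and PE with 50 µM gave 146, 184 and 137. The 50 µM and Vehicle libraries did not overlap, nor did those of PE with and without 50 µM. Grpel1 rose at 50 µM alone (0.83 ± 0.12 SE, adjusted p = 2e-05 in limma); the rises with PE (0.45 ± 0.12 SE, adjusted p = 0.0095) and at 50 µM with PE (0.41 ± 0.12 SE, adjusted p = 0.0086) were lost without Vehicle replicate 3 (0.0606) and without replicate 2 of PE with 50 µM (0.057). The ratio of Hspa9 to Grpel1 FPKM was 2.17 to 2.93 in the 12 libraries without 50 µM and 3.75 to 4.42 in the 6 with it.

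Timm44, which anchors mortalin to the channel, and Dnajc19, its J-protein partner, rose at 50 µM without PE and were not called at 50 µM with PE. Timm44 stood at 54.2, 51.2 and 45.6 FPKM with Vehicle, 73.4, 67.5 and 63.7 with PE and 75.0, 83.1 and 73.1 at 50 µM alone. It rose with PE (0.43 ± 0.11 SE, adjusted p = 0.0087 in limma) and at 50 µM alone (0.61 ± 0.11 SE, adjusted p = 0.00021), and PE with 50 µM overlapped with PE (0.15 ± 0.11 SE, adjusted p = 0.26). Dnajc19 stood at 9.49, 8.78 and 7.94 FPKM with Vehicle, at 9.64, 10.0 and 9.25 with 10 µM and at 15.1, 12.5 and 14.3 with 50 µM Senexin A alone. With PE it stood at 11.2, 10.6 and 12.1 FPKM without the inhibitor, at 13.4, 12.6 and 12.0 with 10 µM and at 13.0, 12.2 and 11.7 with 50 µM. Dnajc19, whose locus overlaps Fxr1 in the table and whose value is thus uncertain, rose with PE (0.34 ± 0.09 SE, adjusted p = 0.0069) and at 50 µM alone (0.62 ± 0.09 SE, adjusted p = 1.3e-05). With PE present, its 50 µM libraries overlapped with PE alone (0.11 ± 0.09 SE, adjusted p = 0.31).

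The subunits of MPP, the peptidase that cuts off presequences, were the only members to fall at 50 µM with PE. Pmpca (chr3:9195489-9203287) encodes the alpha subunit that binds presequences. Pmpca stood at 58.1, 64.7 and 55.2 FPKM with Vehicle, at 61.4, 67.4 and 64.8 with 10 µM and at 70.8, 71.6 and 74.2 with 50 µM Senexin A alone. In the presence of PE its values were 102, 100.1 and 102 FPKM without the inhibitor, 92.3, 100.5 and 91.3 with 10 µM and 78.7, 86.4 and 69.0 with 50 µM. The PE libraries were above all those of Vehicle and of PE with 50 µM and overlapped with PE at 10 µM. Pmpca rose with PE (0.77 ± 0.08 SE, adjusted p = 3.5e-06 in limma), which was the largest PE change among the members. At 50 µM it fell with PE (log2 change -0.38 ± 0.08 SE, adjusted p = 0.00059) and rose without PE (0.28 ± 0.08 SE, adjusted p = 0.0051), the latter call being lost under quantile normalization (0.218).

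Pmpcb, the catalytic beta subunit, moved in the same directions with PE and on adding 50 µM to it. Pmpcb stood at 106, 105 and 94.6 FPKM with Vehicle, at 105, 104 and 90.7 with 10 µM and at 115, 119 and 116 with 50 µM Senexin A alone. Its levels with PE were 142, 142 and 119.9 FPKM without the inhibitor, 119.7, 145 and 115 with 10 µM and 101, 117 and 98.3 with 50 µM. PE libraries were above Vehicle and above PE with 50 µM, without overlap. Pmpcb rose with PE (0.40 ± 0.10 SE, adjusted p = 0.0056 in limma) and fell at 50 µM with PE (-0.35 ± 0.10 SE, adjusted p = 0.006). At 50 µM alone its change of 0.20 was not called (adjusted p = 0.085), was called with the replicate block (0.0133) and was -0.02 under quantile normalization. The ratio of Pmpca to Pmpcb FPKM was 0.55 to 0.71 in the 9 libraries without PE and 0.69 to 0.85 in the 9 with it.

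**Figure D3:**
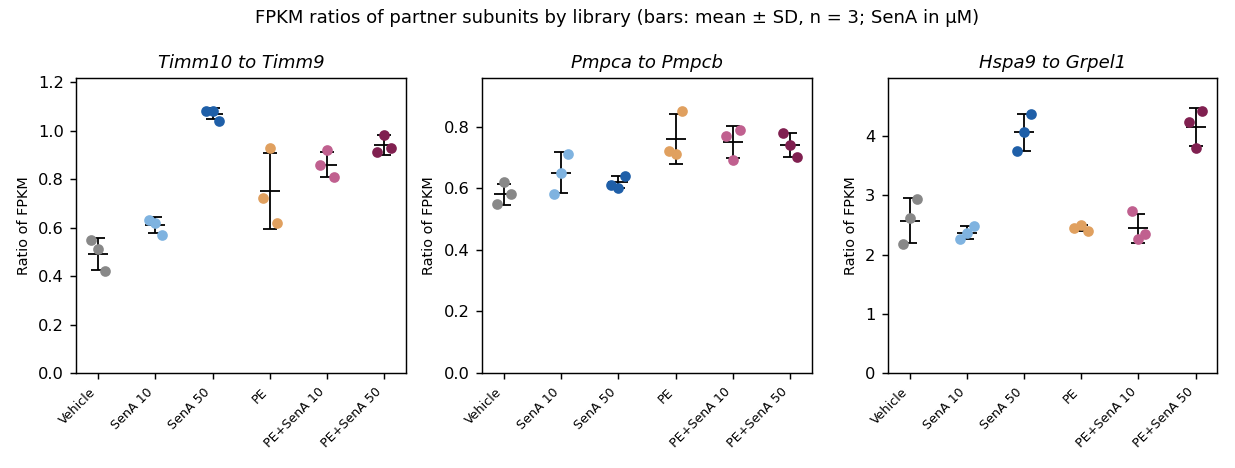
Ratios of FPKM between partner subunits in each library (points) with the mean ± SD of 3 libraries, by group; Senexin A doses are in µM. Timm10 to Timm9 is 1.04 or more in the 3 libraries with 50 µM alone, Pmpca to Pmpcb is 0.69 or more in the 9 libraries with PE, and Hspa9 to Grpel1 is 3.75 or more in the 6 libraries with 50 µM.

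Members by name only were Timmdc1, an assembly factor of respiratory complex I, and Tomm34, a cytosolic cochaperone. Timmdc1 stood at 29.4, 30.9 and 31.1 FPKM with Vehicle and 48.1, 45.5 and 52.7 at 50 µM alone, and at 37.7, 34.2 and 35.0 with PE and 51.5, 60.4 and 52.3 with PE and 50 µM. It rose at 50 µM in both backgrounds (0.66 ± 0.08 SE, adjusted p = 4.9e-06 without PE and 0.60 ± 0.08 SE, adjusted p = 1.5e-05 with PE in limma), and all 6 libraries with 50 µM were above the other 12. Tomm34 passed the test at 50 µM alone only (0.33 ± 0.12 SE, adjusted p = 0.031) in groups that overlapped, and leaving out Vehicle replicate 1 (0.173), Vehicle replicate 3 (0.0841) or replicate 2 (0.0672) or 3 (0.0732) of 50 µM alone ended the call.

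The doses of the inhibitor were also compared with each other. Without PE, 16 of 28 were higher at 50 than at 10 µM and none lower (25.4% and 24.9% of all rows). With PE, 12 were higher and 2, Pmpca and Pmpcb, lower (21.3% and 19.9% of all rows). The 2 lower calls became 1 without replicate 2 of PE with 10 µM or without replicate 1 of PE with 50 µM, and 0 without replicate 3 of PE with 50 µM. The largest steps without PE were those of Hspa9 (1.24), Samm50 (0.91), Timm10 (0.90), Timm23 (0.75) and Timm8a1 (0.71). With PE, Timm44 (-0.09), Timm22 (-0.05), Dnajc19 (-0.04) and Timm8b (-0.01) had changes near 0 between the doses, none of them called.

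Whether the response to 50 µM differed with PE was tested as the change with PE less the change without it, which is the interaction. Of 28 members 4 were called lower and none higher (4.76% and 2.24% of all rows), with a median difference of -0.31 against 0.03 over all tested rows. These were Pmpca (-0.66 ± 0.11 SE, adjusted p = 0.0023 in limma), Pmpcb (-0.55 ± 0.14 SE, adjusted p = 0.024), Dnajc19 (-0.51 ± 0.12 SE, adjusted p = 0.02) and Samm50 (-0.41 ± 0.11 SE, adjusted p = 0.032). Only the Pmpca call held in every alternative. That of Dnajc19 was lost without Vehicle replicate 3 (0.0571). For Pmpcb 6 libraries, left out 1 at a time, ended the call: Vehicle 3 (0.0683), PE 1 (0.07), PE 2 (0.0653), PE with 50 µM 1 (0.0644) and 3 (0.0638), and 50 µM alone 2 (0.0552). For Samm50 there were 8: Vehicle 2 (0.0667) and 3 (0.0898), PE 1 (0.0908) and 2 (0.06), PE with 50 µM 1 (0.0804) and 3 (0.0673), and 50 µM alone 2 (0.0697) and 3 (0.0769).

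With the replicate block 12 members were called lower in this comparison and 1690 of all rows were called in place of 734. The 8 added were Grpel1, Mtx2, Timm10, Timm13, Timm17a, Timm23, Timm44 and Timm8b, with differences between -0.52 and -0.25. The count of 4 became 1 without Vehicle replicate 3, 2 without PE replicate 1 or 2, without replicate 1 or 3 of PE with 50 µM or without replicate 2 of 50 µM alone, and 9 without replicate 2 of PE with 50 µM. At 10 µM no member was called in the same test in limma with or without the block, against 0.0668% of all rows higher and 0.239% lower without it; the intervals of the members' differences reached from -1.54 (Timm17b) to 0.70 (Timm10b) on the log2 scale.

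**Figure D4:**
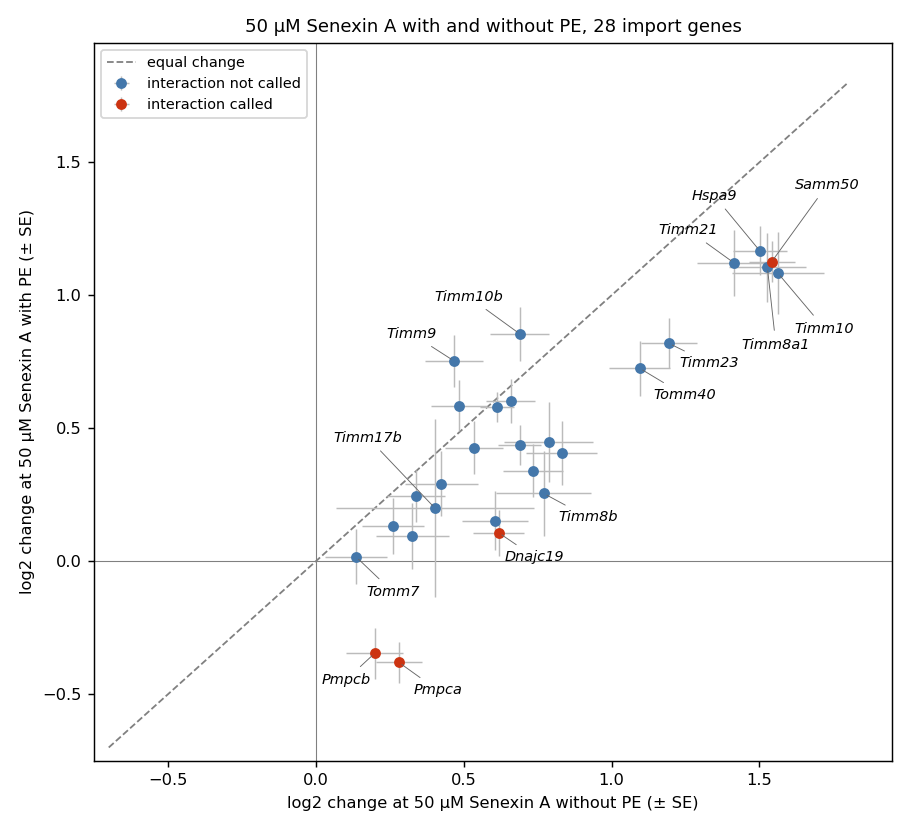
Log2 change of FPKM + 1 at 50 µM Senexin A without PE (x axis) and with PE (y axis) for the 28 tested import genes, each with its SE; the dashed line marks equal change. Hspa9, Samm50, Timm10, Timm8a1 and Timm21 lie at 1.41 or more on the x axis, Pmpca and Pmpcb lie below 0 on the y axis, and red points mark the 4 genes whose difference was called.

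Import genes outside the rule came from a list of 30, of which 26 were rows of the table and tested. At 50 µM alone 17 rose (65.4%, against 30.5% of all rows) and 2 fell (7.69% against 30.2%). At 50 µM with PE 13 rose (50.0% against 29.3%) and 3 fell (11.5% against 27.4%). With PE alone 14 rose (53.8% against 17.9%) and none fell (12.7% of all rows). The 14 became 8 under quantile normalization (with 3 lower) and without Vehicle replicate 3, and 9 without PE replicate 1 or 2. Lonp1, the main protease of the matrix, stood at 61.5 ± 2.46 FPKM (SD, n = 3) with Vehicle and 244 ± 27.9 at 50 µM alone (1.96 ± 0.08 SE, adjusted p = 1.4e-10 in limma; 1.79 ± 0.08 SE, adjusted p = 7.2e-10 with PE). Chchd4, the oxidoreductase that folds small TIM proteins, rose at 50 µM alone (1.59 ± 0.14 SE, adjusted p = 1.8e-07) and with PE (1.22 ± 0.14 SE, adjusted p = 3.3e-06). Hspe1, the cochaperonin that works with Hspd1, rose more (1.52 alone, 1.26 with PE) than Hspd1 did (0.77 and 0.56), a difference that was not tested. Pam16, a regulator of the motor, rose by 1.25 alone and 0.76 with PE.

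In the interaction at 50 µM 4 of these 26 were called lower (15.4%, against 4.76% of all rows) and none higher (2.24% of all rows). They were Dnajc15 (-0.94 ± 0.19 SE, adjusted p = 0.0081 in limma), Agk (-0.81 ± 0.17 SE, adjusted p = 0.0094), Pitrm1 (-0.47 ± 0.12 SE, adjusted p = 0.026) and Mipep (-0.37 ± 0.11 SE, adjusted p = 0.049). The calls of Dnajc15 and Agk held in every alternative. That of Pitrm1 was lost without Vehicle replicate 2 (0.0663) or 3 (0.0526), PE replicate 1 (0.0716) or 2 (0.0519), replicate 1 of PE with 50 µM (0.0692) or replicate 3 of 50 µM alone (0.0623). That of Mipep was lost with no filter (0.0518) and without any 1 library (0.0508 to 0.129) except replicate 2 of PE with 50 µM and replicate 1 of 50 µM alone. With the replicate block 11 of the 26 were lower, as were 1036 of all 10478 tested rows. Agk, a subunit of the human TIM22 complex, had risen with PE (0.96 ± 0.12 SE, adjusted p = 2.5e-05). Mipep, which trims presequences after MPP, fell at 50 µM with PE (-0.27 ± 0.08 SE, adjusted p = 0.006) and was not called at 50 µM alone (0.10 ± 0.08 SE, adjusted p = 0.29). Pitrm1, which degrades the cut presequences, rose at 50 µM in both backgrounds (1.05 alone and 0.59 with PE).

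A list of 12 genes of the ATF4 and mitochondrial stress response moved beside the members at 50 µM. All 12 rose at 50 µM without PE (median log2 change 2.32) and with PE (2.28), where 30.5% and 29.3% of all rows were called higher. With PE alone none rose and 2 fell (17.9% of all rows were higher and 12.7% lower). Of these 2 calls 1 was left without PE replicate 2 and none without Vehicle replicate 3 or PE replicate 1. Atf4 itself went from 228 ± 34.5 FPKM with Vehicle to 758 ± 48.9 at 50 µM alone (SD, n = 3; 1.74 ± 0.14 SE, adjusted p = 4e-08 in limma). Ddit3, which encodes CHOP, rose by 2.58 alone and 2.38 with PE. At 10 µM alone 1 of the 12 rose and 1 fell (9.17% and 7.01% of all rows), with a list median of 0.15. Shmt2, a mitochondrial enzyme of serine metabolism, rose (0.43 ± 0.13 SE, adjusted p = 0.033 in limma), a call lost with no filter (0.0512) and without Vehicle replicate 1 (0.104), 2 (0.0809) or 3 (0.0531) or replicate 1 (0.0629) or 3 (0.12) of 10 µM alone. Atf5 fell (log2 change -0.62 ± 0.17 SE, adjusted p = 0.022 in limma), which was lost without Vehicle replicate 3 (0.113) and without replicate 1 (0.0641) or 2 (0.112) of 10 µM alone. At 10 µM with PE 4 of the 12 rose (33.3%, against 9.13% of all rows). The part of this response in the change of the members was not tested.

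Mitochondrial genes of other kinds give a scale for the members. Of 67 tested mitochondrial ribosomal proteins 32 rose with PE, 62 at 50 µM alone and 43 at 50 µM with PE, and none fell in these, which is 47.8%, 92.5% and 64.2% of them against 17.9%, 30.5% and 29.3% of all rows called higher. With Vehicle replicate 3 or PE replicate 1 left out the 32 became 21, and under quantile normalization 4 were lower with PE. Of 81 tested subunits of oxidative phosphorylation, 62 rose and 1 fell with PE, 74 rose at 50 µM alone, and 22 rose and 7 fell at 50 µM with PE (34 and 13 with the replicate block). The 22 are 27.2% of the subunits, near the 29.3% of all rows called higher there, and the 7 are 8.64% against 27.4% of all rows called lower, whereas 76.5% rose with PE and 91.4% at 50 µM alone. Under quantile normalization 40 of the 81 rose with PE and 18 fell at 50 µM with PE, and the 7 became 3 without PE replicate 1 or 2 or replicate 1 or 3 of PE with 50 µM. In the interaction at 50 µM 38 of these 81 subunits were called lower (71 with the replicate block), as were 9 of the 67 ribosomal proteins (30 with the block), against 4 of the 28 import genes (12 with the block) and 4.76% of all rows. Leaving out 1 library moved these 38 to between 16 (without Vehicle replicate 3) and 63 (without replicate 2 of PE with 50 µM), and the 9 to between 1 (without replicate 1 of PE with 50 µM) and 20 (without replicate 2 of PE with 50 µM). At 10 µM alone 23 of the 67 ribosomal proteins (34.3%) and 65 of the 81 subunits (80.2%) rose, beside 15 of the 28 import genes and 9.17% of all rows. At 10 µM with PE 27 (40.3%) and 18 (22.2%) rose, beside 11 import genes and 9.13% of all rows. None of either list fell at 10 µM (7.01% and 7.84% of all rows). Differences between the lists were not tested.

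**Figure D5:**
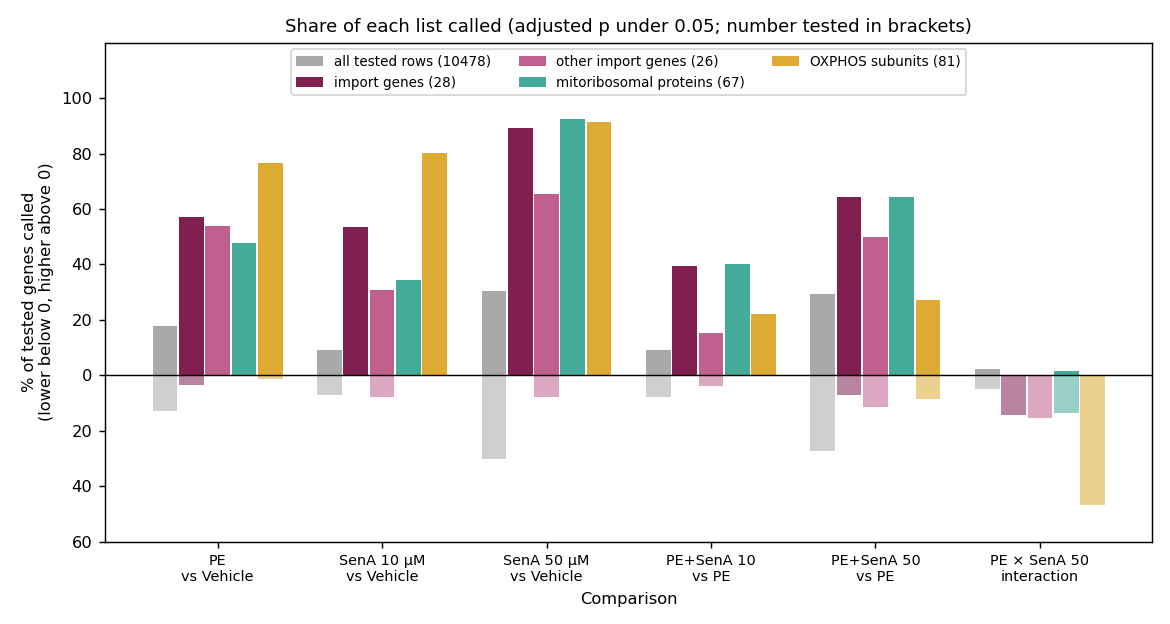
Percent of tested genes called higher (above 0) and lower (below 0, paler) at an adjusted p under 0.05 in limma, for all tested rows and 4 gene lists, in 5 comparisons and the interaction at 50 µM. The import genes reach 25 of 28 higher at 50 µM alone, and the subunits of oxidative phosphorylation have 38 of 81 lower in the interaction.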

How the data were processed

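RNA was measured in 18 libraries, 3 in each of 6 groups, as polyadenylated RNA prepared with TruSeq V2, per the labels' protocols. The authors deposited FPKM per gene, made with Bowtie2 and Cufflinks on the rat build rn5 per the submitters' processing notes; their versions and the gene annotation are not given in the sources used here. FPKM hold no counts, so depth is unknown and no counting interval is given. The lowest value is 0.01, a floor at which 2766 of 17303 rows stand in every library. Values are relative and not amounts per cell. The libraries' median-ratio factors ran only from 0.985 to 1.02, although their FPKM sums ran from 610324 to 910958. By that measure the deposited values already stood on nearly 1 scale, so the median-ratio alternative given below changed them little.

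The 10478 rows that reached 1 FPKM in 3 or more libraries were tested with limma 3.58.1 (R 4.3.3) on log2(FPKM + 1), with 1 mean per group, 12 residual degrees of freedom, moderated variances with a trend, and Benjamini-Hochberg adjustment over all tested rows per comparison. Changes are on that scale and understate those of weakly expressed genes. Tables used pandas 2.3.3 and numpy 2.4.6 under Python 3.11.15, and plots matplotlib 3.10.9. The script was run on simulated data with noise independent between libraries, unlike the deviations shared by replicate number given below. That run therefore does not check the p-values under such sharing. Alternatives were a pseudocount of 0.1, no filter, quantile normalization, median-ratio scaling, the replicate number as a block, and leaving out each library.

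Each member was accounted for, with values by role in the pathway and the largest rises and falls. The members, the other gene lists, the markers and the motifs were chosen with earlier results of these data known. Libraries with the same replicate number deviated together from their group means (45 pairs, r from 0.213 to 0.587), unlike those with different numbers (90 pairs, r from -0.462 to 0.095). In 90 of 90 checks the closest match of a library in another group bore its own number. Deviations from a group's own mean cancel within the group. Positive values for equal numbers therefore push those for different numbers down, and the checks largely restate the same values. From the values of the same-numbered pairs the numbers were taken to pair the libraries, but only the replicate block used this pairing. The main fit and the other alternatives held no term for the replicate, so their calls and lost calls are those of an unpaired fit. The labels do not say what a number marks. Replicates of a group correlated at 0.9863 to 0.9923 and were not copies of each other. Comparisons with PE or Vehicle in common share those libraries. Timm50, Timm29, Tomm5 and Tomm6, and Immp1l, Immp2l, Mtx3 and Clpp of the further list, had no row under these symbols and were not analysed here.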

Additional observations from a re-analysis of the deposited data

Results flagged for a closer look

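The response to 50 µM Senexin A differed between cells with and without PE for 4 import genes, by a test of the difference itself in limma. Values are the log2 change with PE less that without it. The difference was -0.66 for Pmpca and -0.55 for Pmpcb, the subunits of the presequence peptidase, -0.51 for Dnajc19 of the import motor and -0.41 for Samm50, the core of the outer membrane insertase. For Pmpca the sign of the change differed between the backgrounds, while Samm50 rose in both. Of all tested rows 4.76% were lower and 2.24% higher in the same test. The Pmpca call alone held in every alternative. Those of Dnajc19, Pmpcb and Samm50 were each lost when single libraries were left out, and the count of 4 fell to 1 without Vehicle replicate 3 and rose to 12 with the replicate block.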

How the results depend on the processing

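Of 122 called member results, 83 were called in every alternative, and 37 results not called were called in at least 1. The replicate block added 32 calls and ended none. Quantile normalization ended 12 and added 4, no filter ended 12 and median-ratio scaling ended 4. Under quantile normalization 11 members in place of 16 were higher with PE and 3 in place of 1 lower. Of all rows, 1588 in place of 1874 were then higher and 1744 in place of 1331 lower. Also under quantile normalization 1 member, Timm9, was higher in the interaction at 50 µM. With no filter 1 member in place of 2 was lower at 50 than at 10 µM with PE. With the replicate block 12 members in place of 4 were lower in the interaction at 50 µM.

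Signs changed under quantile normalization for Tomm7 with PE (-0.31), Tomm20 with PE (-0.049) and at 50 µM alone (-0.06), and Pmpcb at 50 µM alone (-0.015). Tomm7 with PE also changed sign without Vehicle replicate 3 and without PE replicate 2, over a range from -0.028 to 0.047 with 1 library left out.

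Leaving out 1 library, members called higher ranged from 11 to 19 with PE, 5 to 9 at 10 µM and 14 to 19 at 50 µM with PE, 6 to 13 and 23 to 25 at these doses alone, and 11 to 12 with PE and 15 to 17 without it between the doses. Members called lower ranged from 0 to 2 between doses with PE and from 1 to 9 in the interaction at 50 µM.

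Over all rows, the block gave 2924 calls in place of 1778 at 10 µM with PE, 2761 in place of 1696 at 10 µM alone, 1690 in place of 734 in the interaction at 50 µM and 230 in place of 32 in that at 10 µM, where no filter gave 20. With 1 library left out these ranged from 1032 to 1575, 949 to 1456, 391 to 920 and 13 to 34. Depth is unknown, so no limit from counting is given.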
